A study of Mus musculus with 6 samples.

Results

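The genes described here make cholesterol and fatty acids, sense sterols or export them. A list of 37 genes was taken by symbol from a table of 14051 genes: 7 enzymes of the mevalonate arm, 12 enzymes that turn farnesyl diphosphate into cholesterol by way of squalene, 6 genes of the SREBP pathway and sterol sensing, 9 of fatty acid synthesis, desaturation and elongation, and 3 of the liver X receptor (LXR) and cholesterol efflux. Of the 37, 36 could be analysed, and Scd1, a fatty acid desaturase, was not analysed here. The 6 libraries came from sorted circulating donor CD8+ T cells taken from the BM after BMT, 3 labelled GC-treated and 3 labelled vehicle-treated. Recipients were irradiated B6D2F1 mice given purified T cells of B6.CD45.1 donors, so both groups share the transplant, the alloreactive setting and the irradiation. The GC-treated recipients had dexamethasone, a synthetic glucocorticoid, at 5 mg/kg/day from day -1 to day 5, and the vehicle-treated recipients had methyl-β-cyclodextrin over the same days. On day 5 an i.v. dose of anti-CD45 antibody marked the cells inside vessels shortly before collection, and the marked donor CD8+ fraction was sorted from the pooled BM of several mice. Whether every library had a pool of its own is not stated, so p-values measure only the spread between these libraries, which may be technical. No source used here gives the age of the mice. RNA was measured by bulk RNA-Seq, in which fewer cells of a type and less RNA per cell cannot be told apart.

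Cells build cholesterol from acetyl-CoA through mevalonate, isoprenoid units, squalene and a series of sterol intermediates. When sterols in the endoplasmic reticulum are low, SCAP escorts the SREBP factors to the Golgi for cleavage, and the released factors switch on the enzymes of both pathways, SREBP-2 chiefly those of sterols and SREBP-1 chiefly those of fatty acids. When sterols are high, the INSIG proteins hold SCAP back, and oxidised sterols activate LXR, which turns on the exporters ABCA1 and ABCG1. Activated T cells are known to switch on the SREBP programme and to repress LXR targets as they grow and divide, since new membranes need both kinds of lipid.

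All values are normalized counts, in which the reads of a library are divided by 1 size factor, and fold changes are log2 of GC-treated over vehicle-treated on log2(normalized count + 1). Limma was run on the 11649 genes that reached a count of 10 in 3 or more libraries, with adjustment for multiple testing over all of them, and each of the 36 genes passed this filter. The libraries held 67887570 to 76888118 reads with the GC label and 60949593 to 64801008 with the vehicle label, and the 36 genes took 0.322% to 0.353% and 0.346% to 0.348% of them. Genes of the CD8 T cell list were high throughout, with sums of 663541 to 771907 in GC-treated and 654966 to 707925 in vehicle-treated libraries, and 10 of 13 had positive fold changes, with a median of 0.11. Ptprc, the CD45 phosphatase of all leukocytes and the highest of the list, averaged 143985 ± 17421 in GC-treated and 147782 ± 12468 in vehicle-treated libraries (SD, n = 3 each). Fkbp5, which the glucocorticoid receptor is known to induce and which was singled out after its values were seen, stood at 21148, 16401 and 14779.9 in GC-treated 1, 2 and 3, against 24888, 32705 and 21271 in vehicle-treated 1, 2 and 3. Of 9 tested glucocorticoid receptor targets, 8 had negative fold changes, and vehicle-treated 2 was highest for 7 of them all. Their median log2 deviation from the gene mean was 0.074, -0.19 and -0.13 in GC-treated 1, 2 and 3. It was 0.16, 0.63 and -0.045 in vehicle-treated 1, 2 and 3, so the groups overlapped. At an unadjusted p under 0.05 by limma, 1 of the 9 was higher and 1 lower, beside 2.12% and 5.07% of all tested genes. This check does not bear out the labels, and directions below are those of the labels alone. The libraries also differed in marker genes of other cells. The summed normalized count of 11 neutrophil genes was 1887, 12797 and 9063 in GC-treated 1, 2 and 3, against 873, 485 and 4498 in vehicle-treated 1, 2 and 3, and 3 of the 11 were at 0 in at least 1 library. Ltf, the granule protein with the highest mean among them, was at 617, 5785 and 2499 in the GC-treated libraries and at 0, 32.4 and 971 in the vehicle-treated ones. Mitochondrial genes took 0.902%, 0.400% and 0.615% of the reads in the GC-treated libraries and 0.910%, 1.13% and 0.757% in the vehicle-treated ones. In the lists of cell markers, the neutrophil list included, none of the genes passed limma's test. At an unadjusted p under 0.05 by limma, 5 of the 11 neutrophil genes were higher and 0 lower, beside 2.12% and 5.07% of all tested genes. Of 12 monocyte and macrophage genes, 9 had negative fold changes, with a median of -0.17, and their summed counts ran from 5695 to 8264 in GC-treated and from 5890 to 7068 in vehicle-treated libraries. Of 6 erythroid genes, 5 were negative, with a median of -0.42, and sums over the list ran from 7888 to 10371 in GC-treated and from 9060.0 to 11908 in vehicle-treated libraries. All 7 genes of the CD4 T cell list were negative, with a median of -0.23 and sums of 11763 to 12641 in GC-treated and 12605 to 14834 in vehicle-treated libraries. Of 6 B cell genes 4 were negative, with a median of -0.15, and of 4 stromal genes 2 were. Named after their values were seen, Cd163 of the monocyte list, Hba-a1 and Hba-a2 of the erythroid list and Cd40lg of the CD4 list were lower in every GC-treated library than in any vehicle-treated one. These are 1 of 12, 2 of 6 and 1 of 7 tested genes of those lists, beside 6.4% of all tested genes. The highest members of these lists overlapped between the groups, namely Ctss of macrophages at 4764 ± 1101 and 3883 ± 474, Tfrc of erythroid cells at 8345 ± 1394 and 9279.7 ± 1496, Ighm of B cells at 20008 ± 2208 and 22199.5 ± 4424, Icos of the CD4 T cell list at 6575 ± 111 and 7165 ± 939, and Pecam1 of the stromal list at 2794 ± 308 and 2959.8 ± 98.2 in GC-treated and vehicle-treated libraries (SD, n = 3 each).

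The cells transcribed both pathways nearly end to end, at very different levels per kilobase of transcript. Lbr, a sterol reductase that also tethers chromatin to the nuclear lamina, was the highest of the 36, with a mean of 10105 normalized counts per kilobase over the 6 libraries. Acly, which makes cytosolic acetyl-CoA from citrate and so feeds both pathways, followed at 7957. Elovl5, an elongase of polyunsaturated fatty acids, had 3860.4, and Ebp, a sterol isomerase, had 3826, and these neighbours overlapped between libraries. Nr1h2, which encodes LXRβ, had 3049, Srebf2 2626 and Fasn 2462 counts per kilobase. At the other end, Fdps, which makes farnesyl diphosphate, had 55.7, far below the 698 of Hmgcs1 in the same arm. Fdps has near-identical processed copies elsewhere in the genome, so its reads and its level are uncertain. Abca1 had 3.65 counts per kilobase, against 139.7 for Abcg1, so the exporters under LXR control were far apart in level. Fads2, a desaturase of polyunsaturated fatty acids, was at 2.38, while Fads1, the desaturase that acts after it, was at 793.

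**Figure D1:**
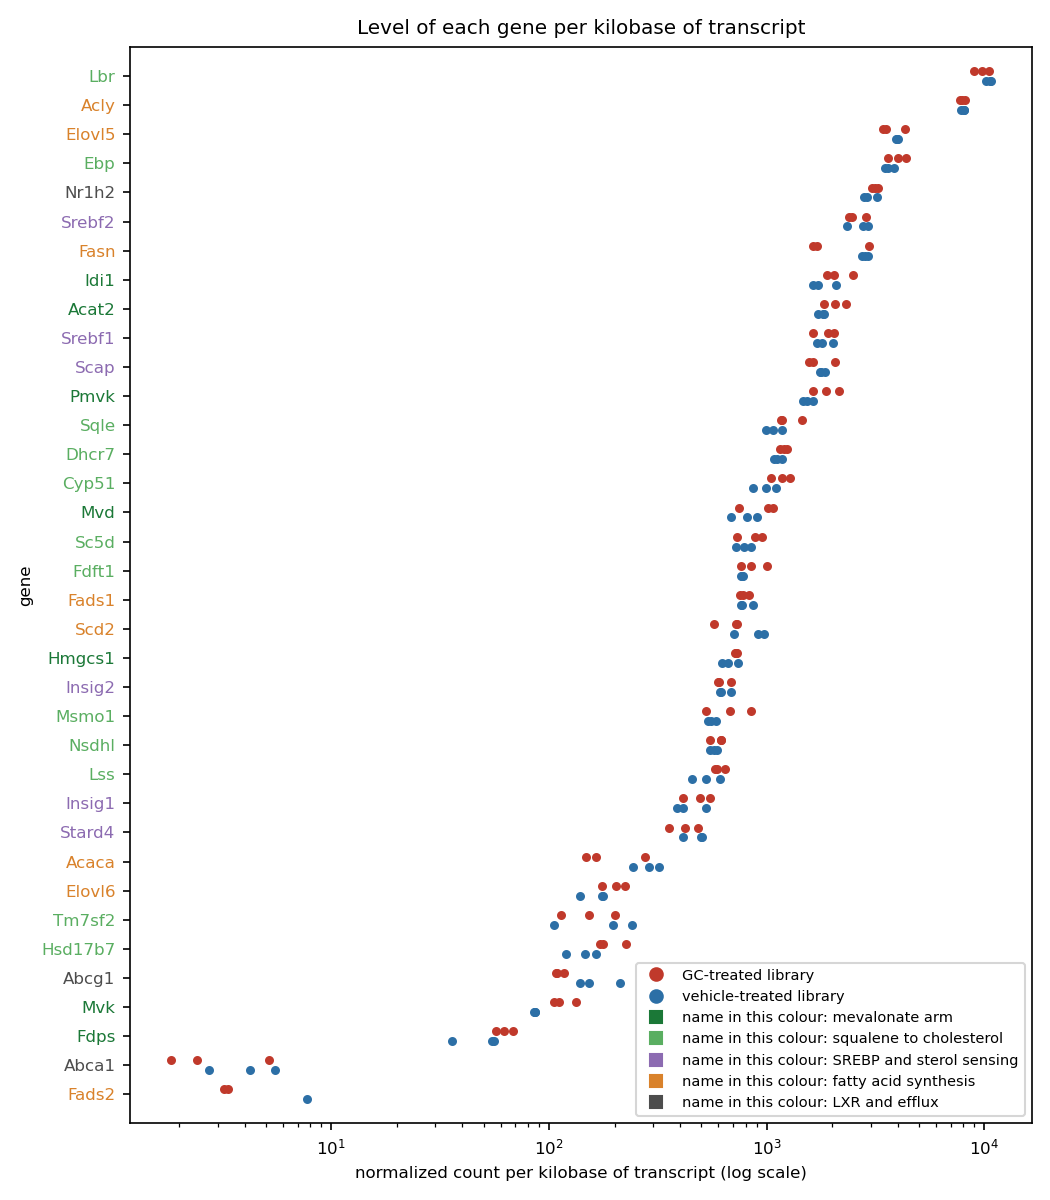
Normalized counts per kilobase of transcript on a log scale, 1 point per library, GC-treated above vehicle-treated for each gene, with genes ordered by their mean and names coloured by role. The order runs from Lbr at a mean of 10105 down to Fads2 at 2.38, and a library at 0 for Fads2 is not drawn.

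None of the 36 genes passed limma's test between GC-treated and vehicle-treated libraries, with a smallest adjusted p of 0.62, and over all 11649 genes the share called was 0%. The signs of the fold changes differed by role. Of the 19 sterol enzymes, 17 had positive fold changes, with a median of 0.20, while 48.5% of all tested genes were positive and their median was -0.0079. Of 8 fatty acid genes, Elovl6 and Fads2 were positive, Fads2 at counts near 0 and negative by DESeq2 and edgeR. Their median of -0.049 ran from -0.19 without GC-treated 2 to -0.016 without GC-treated 3. By either DESeq2 or edgeR, where Fads2 was negative, it was -0.16. The 3 genes with the smallest p, Acaca, Fasn and Scd2, were at -0.58, -0.49 and -0.35. Of 6 SREBP and sensing genes, 2 were positive, with a median of -0.037. Of the 3 LXR and efflux genes, Nr1h2 was at 0.087 and both exporters were negative, Abca1 at -0.48 and Abcg1 at -0.57. At an unadjusted p under 0.05 there were 2 members with higher values, Mvk and Hsd17b7, beside 2.12% of all tested genes, and 4 with lower values, Acaca, Fasn, Scd2 and Abcg1, beside 5.07% of all tested genes. On the recovered reads DESeq2 and edgeR also called 0 members, with 3 higher and 4 lower in DESeq2 and 3 higher and 3 lower in edgeR at that unadjusted threshold. In 5 members all GC-treated libraries lay above all vehicle-treated ones, namely Acat2, Mvk, Pmvk, Fdps and Hsd17b7, beside 6.4% of all tested genes. In Abcg1 alone of the members all GC-treated libraries lay below, beside 6.4% again. These unadjusted counts rest on single libraries. The higher ones came to 8 without GC-treated 1, 4 without vehicle-treated 3 and 0 without GC-treated 3, vehicle-treated 1 or vehicle-treated 2. The lower ones came to 1 without GC-treated 2 or vehicle-treated 2 and to 2 without GC-treated 3, vehicle-treated 1 or vehicle-treated 3.

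**Figure D2:**
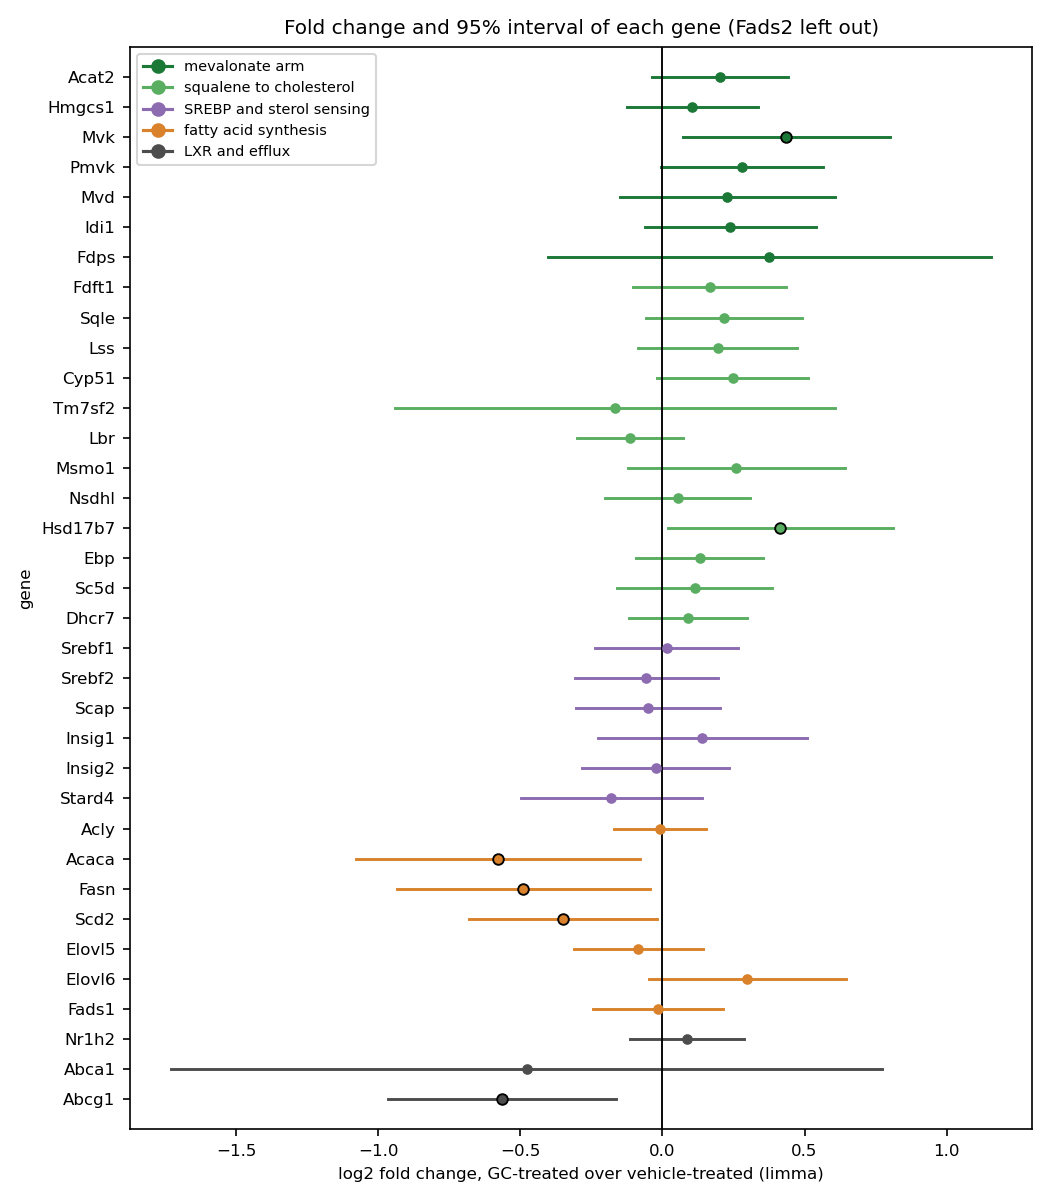
Log2 fold change of GC-treated over vehicle-treated libraries with its 95% interval from limma for 35 genes, coloured by role, with a black edge where the unadjusted p was under 0.05. All 7 genes of the mevalonate arm lie right of 0, and Acaca, Fasn, Scd2 and Abcg1 lie left of 0 with intervals that do not reach it; Fads2 is left out because its interval runs from -3.37 to 4.96.

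All 7 genes of the mevalonate arm, which turns acetyl-CoA into isoprenoid units, had positive fold changes, with a median of 0.24. Mvk encodes mevalonate kinase and lies on the forward strand of chromosome 5 at 114582267-114601803 of GRCm39. It stood at 545, 518 and 654 in GC-treated 1, 2 and 3, against 423, 417 and 423 in vehicle-treated 1, 2 and 3. The vehicle-treated libraries were nearly equal and every GC-treated library lay above them. The means were 573 ± 72.1 and 421 ± 3.23 (SD, n = 3 each), with a log2 fold change of 0.44 ± 0.16 (SE) and an adjusted p of 0.62 by limma. Pmvk, the kinase of the next step, had 2231, 1957 and 2558 in the GC-treated libraries and 1956, 1746 and 1826 in the vehicle-treated ones. The groups touched without overlap, GC-treated 2 exceeding vehicle-treated 1 by about 1 count, and the fold change was 0.28 (standard error 0.13). Acat2, a thiolase at the entry of the arm, had 4877, 5484 and 6185 in GC-treated and 4868, 4594 and 4846 in vehicle-treated libraries. GC-treated 1 and vehicle-treated 1 were almost the same and GC-treated 3 was highest, with a fold change of 0.20 (standard error 0.11). Acat2 shares 16.1% of its exon bases with Tcp1 and a predicted gene on the other strand, and since the library kit does not mark strand its reads are uncertain to that extent. The like share was 15.5% in Hmgcs1 and 12.8% in Mvd. Idi1, an isomerase and the highest of the arm per kilobase, had 4910.0, 5290.0 and 6450.2 in GC-treated 1, 2 and 3, against 4465, 4233 and 5394 in vehicle-treated 1, 2 and 3. The groups overlapped, since vehicle-treated 3 lay above GC-treated 1 and 2, and the fold change was 0.24 (standard error 0.13). The other members of the arm covered narrower or lower ranges. Hmgcs1, which makes HMG-CoA, ran from 2543 to 3029 over the 6 libraries at a fold change of 0.11. Mvd, the decarboxylase, ran from 1313 to 2049.6 at 0.23, and Fdps from 46.9 to 89.3 at 0.38, with a 95% interval of -0.40 to 1.16.

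Of the 12 genes from squalene to cholesterol, 10 had positive fold changes, with a median of 0.15. Hsd17b7, a reductase that works on the sterol ring while its methyl groups are removed, lies on the reverse strand of chromosome 1 at 169777093-169796813 of GRCm39. It was at 813, 793 and 1043 in GC-treated 1, 2 and 3, against 674, 555 and 758 in vehicle-treated 1, 2 and 3. Every GC-treated library lay above every vehicle-treated one, and GC-treated 3 was the highest of all. The means were 883 ± 139 and 662 ± 102 (SD, n = 3 each), a log2 fold change of 0.41 ± 0.18 (SE) and an adjusted p of 0.62 by limma. Cyp51, the lanosterol demethylase, had 5208, 5872 and 6359 in GC-treated and 4939.5, 4319.8 and 5456 in vehicle-treated libraries, a fold change of 0.25 (standard error 0.12). Sqle, which oxidises squalene and is a control point of the pathway, had 3294, 3252 and 4076 in GC-treated and 3016, 2786 and 3313 in vehicle-treated libraries, a fold change of 0.22 (standard error 0.12). In both genes vehicle-treated 3 lay above GC-treated 1, so the groups overlapped, and vehicle-treated 2 was lowest. Lbr had 53972, 49995 and 46128 in GC-treated 1, 2 and 3, against 54793, 55265 and 52152 in vehicle-treated 1, 2 and 3. GC-treated 3, the library in which most sterol enzymes were highest, was lowest for Lbr, and its fold change was -0.11 (standard error 0.083). Tm7sf2, a reductase that catalyses the same step as Lbr, ran from 156 in vehicle-treated 3 to 358 in vehicle-treated 2 at a fold change of -0.17, which turned to 0.042 without GC-treated 3 and to 0.080 without vehicle-treated 2. Per kilobase Lbr exceeded Tm7sf2 by a ratio of 52.2, 63.4 and 79.0 in GC-treated 1, 2 and 3 and of 54.3, 44.7 and 96.5 in vehicle-treated 1, 2 and 3. Among the remaining members, Msmo1, a methylsterol oxidase, ran from 1369.7 to 2204 at 0.26. Fdft1, which makes squalene, ran from 2636 to 3489.8 at 0.17, and Lss, which closes the sterol rings, from 2893 to 4116 at 0.19. Ebp, the isomerase, ran from 6081 to 7634 at 0.13, and Sc5d, a desaturase, from 3515 to 4606 at 0.11. The smallest differences were those of Dhcr7, which completes cholesterol, from 3205 to 3663 at 0.089, and of Nsdhl, a dehydrogenase of the demethylation, from 1436 to 1628 at 0.054. None of these intervals excluded 0. Exon bases shared with a gene on the other strand came to 34.1% in Fdft1 (Ctsb), 28.6% in Cyp51 (chiefly Akap9), 26.9% in Lbr (Dnah14), 16.7% in Sqle (Washc5) and 12.6% in Nsdhl (Cetn2), which leaves their reads uncertain to that extent.

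**Figure D3:**
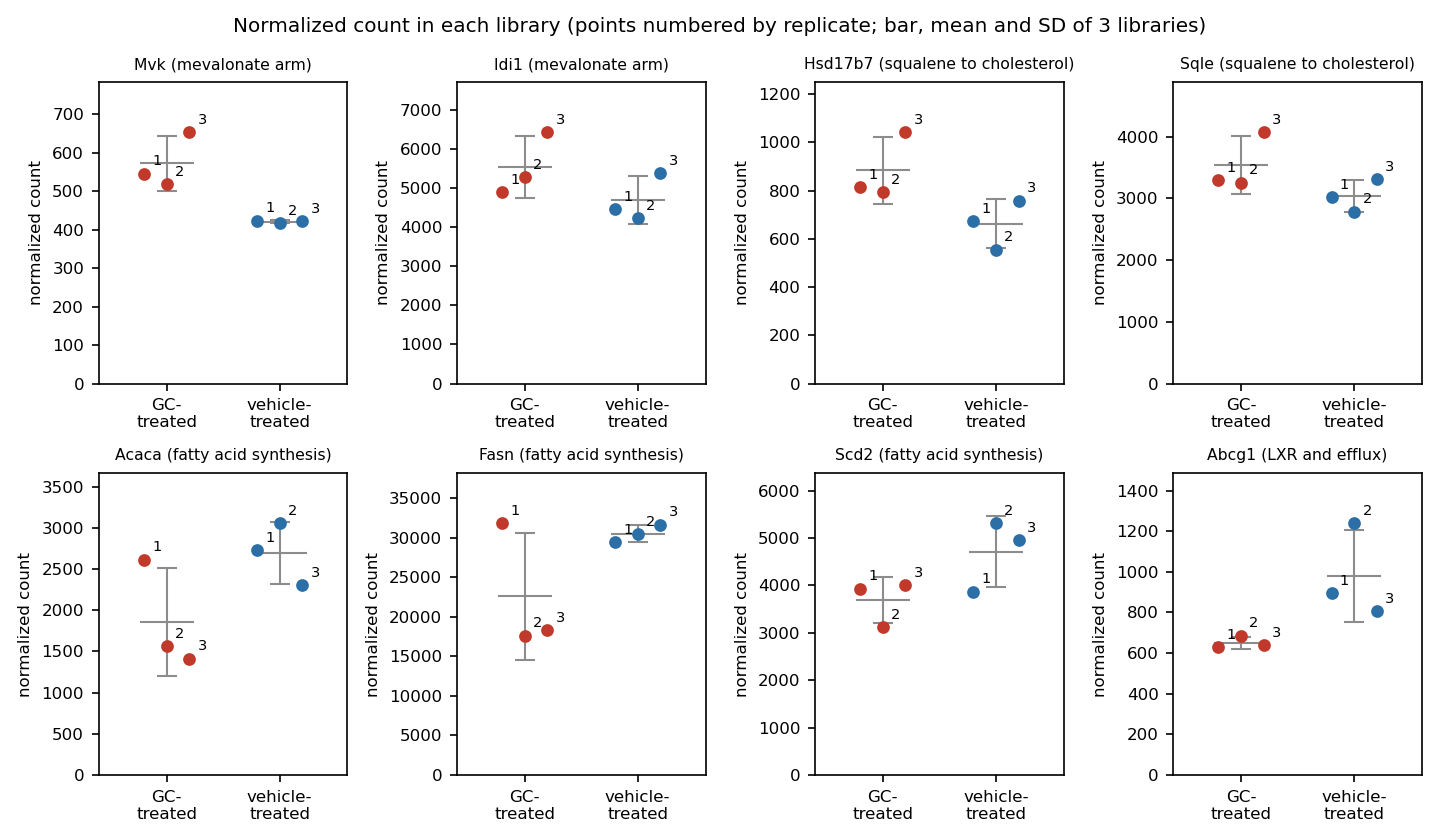
Normalized counts of 8 genes in each library, GC-treated left of vehicle-treated, with points numbered by replicate and grey bars for the mean and SD of 3 libraries. The GC-treated points of Mvk and Hsd17b7 lie above all vehicle-treated points and those of Abcg1 below, while GC-treated 1 sits among the vehicle-treated points of Acaca and above all of them in Fasn.

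The sterol enzymes moved together between libraries within a group as well. GC-treated 3 had the highest count of 14 of the 19, where it was highest for 28.4% of all tested genes, and vehicle-treated 2 had the lowest of 12, where it was lowest for 18.1% of all. Their median log2 deviation from the gene mean was 0.031, 0.072 and 0.26 in GC-treated 1, 2 and 3, against -0.096, -0.17 and 0.018 in vehicle-treated 1, 2 and 3. The groups did not overlap by this measure, but vehicle-treated 3 lay close to GC-treated 1. Without GC-treated 3 the median fold change of the sterol enzymes was 0.11, and without vehicle-treated 3 it was 0.27, the lowest and the highest values on leaving out 1 library, while 17 or 18 of the 19 stayed positive. The neutrophil genes described above were also lowest in vehicle-treated 1 and 2, at median log2 deviations of -2.55 and -1.91, and highest in GC-treated 2 and 3, at 2.39 and 1.98, with -0.60 in GC-treated 1 and 1.22 in vehicle-treated 3. GC-treated 3 was also highest for 9 of the 13 CD8 T cell genes. On the log2 scale their median deviation from the gene mean was -0.085, 0.090 and 0.18 in GC-treated 1, 2 and 3, against -0.0079, -0.089 and -0.076 in vehicle-treated 1, 2 and 3. The part of either list in the sterol values was not tested. In the 28 further sterol genes described at the end, GC-treated 3 was highest for 8, or 28.6%, at a median log2 deviation of -0.064.

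**Figure D4:**
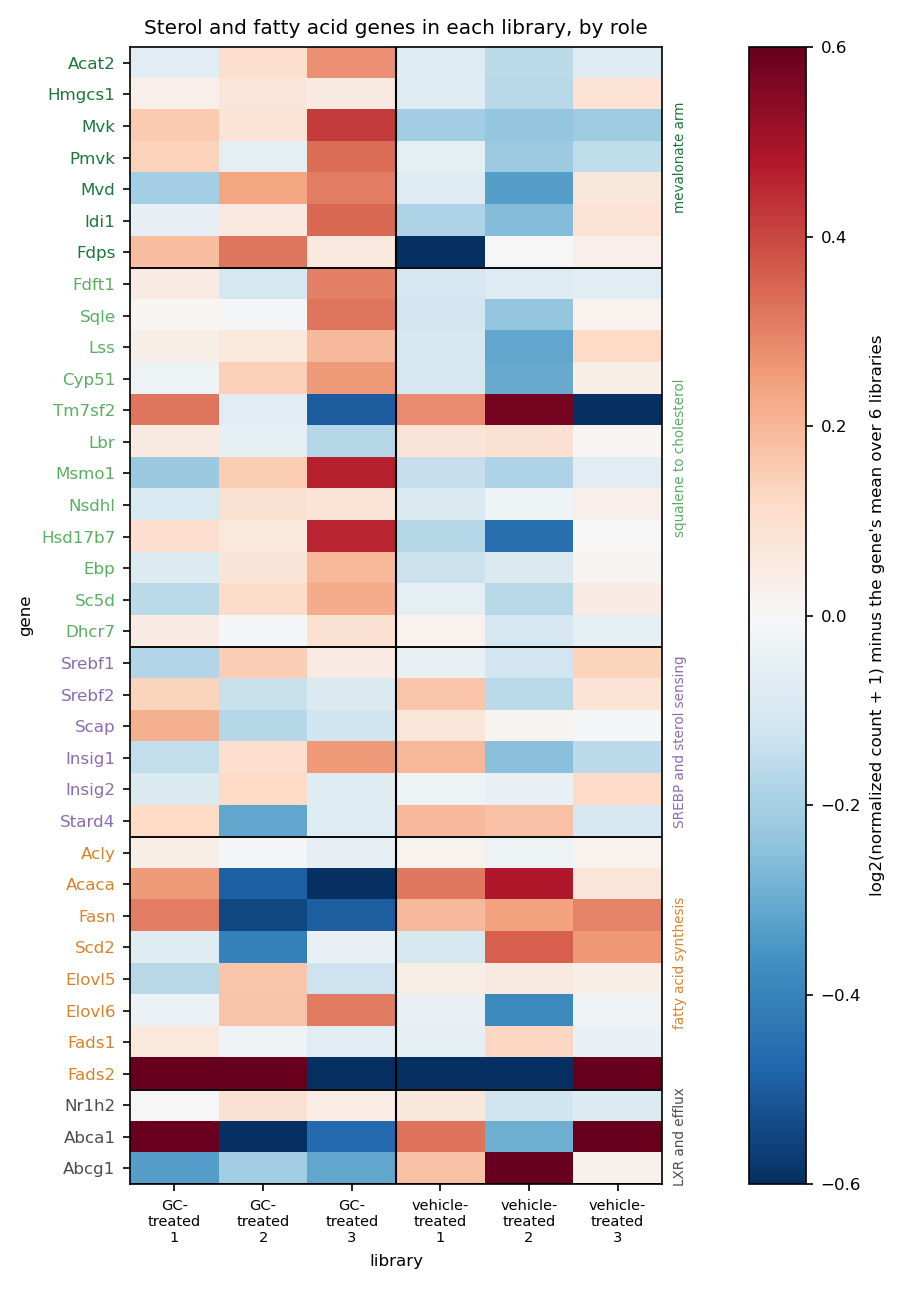
Log2(normalized count + 1) of each gene minus its mean over the 6 libraries, GC-treated columns left of vehicle-treated ones, with rows grouped and coloured by role and colours limited to 0.6 in either direction. The sterol enzymes are red in GC-treated 3 except Tm7sf2 and Lbr and blue in vehicle-treated 2 except Tm7sf2 and Lbr and, nearly white, Fdps and Nsdhl, whereas Acaca and Fasn are blue in GC-treated 2 and 3 alone.

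Because SREBP acts through promoters, the windows from 250 bases before to 50 bases after each start site were searched in the RefSeq table of GRCm38.p6, which held 29 of the 37 genes and 27025 genes in all. Fdps, Sqle, Fdft1, Stard4, Fads1, Scd1, Scd2 and Abcg1 were not matched. Searches covered both strands for TCACNCCAC, one form of the sterol regulatory element, for CCAAT, the box bound by NF-Y, a usual partner of SREBP, and for CACGTG, an E-box that SREBP-1 can also bind. A CCAAT match was found in 15 of 16 sterol enzymes, or 93.8%, in 3 of 6 fatty acid genes (Acly, Elovl5 and Fasn), in 4 of 5 SREBP and sensing genes and in neither of Abca1 and Nr1h2, against 41.1% of all genes and 42.7% of the tested ones. The sterol element form was found in Hmgcs1 alone of the 29, against 1.44% of all genes and 1.37% of the tested ones. The E-box was found in 7 of 29 (Dhcr7, Hsd17b7, Sc5d, Insig1, Scap, Elovl5 and Abca1), against 8.09% of all genes and 11.8% of the tested ones. A match is a description of these letters and no proof of a site, and none of the motifs overlapped another kind. The 250 bases before the start site are shown for Hmgcs1, the 1 gene with the sterol element form, for Mvk and Hsd17b7, the sterol enzymes with the smallest p, and for Fasn, to set a fatty acid gene beside them. Capitals mark the matches on either strand, ATTGG being CCAAT read on the other strand. They are chr13:119690101-119690350 (forward strand), chr5:114444019-114444268 (forward), chr1:169969206-169969455 (reverse) and chr11:120824548-120824797 (reverse) in that order.
Hmgcs1: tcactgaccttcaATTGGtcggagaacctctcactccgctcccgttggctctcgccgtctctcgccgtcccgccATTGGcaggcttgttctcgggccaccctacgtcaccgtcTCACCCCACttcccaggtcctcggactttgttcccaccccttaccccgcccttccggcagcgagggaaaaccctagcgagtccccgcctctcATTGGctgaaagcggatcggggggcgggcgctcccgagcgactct
Mvk: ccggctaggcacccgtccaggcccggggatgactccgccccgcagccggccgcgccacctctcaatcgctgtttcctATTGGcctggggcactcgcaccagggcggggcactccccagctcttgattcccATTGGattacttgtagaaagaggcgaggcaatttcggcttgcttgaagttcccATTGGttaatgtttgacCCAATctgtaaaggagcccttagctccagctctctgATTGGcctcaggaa
Hsd17b7: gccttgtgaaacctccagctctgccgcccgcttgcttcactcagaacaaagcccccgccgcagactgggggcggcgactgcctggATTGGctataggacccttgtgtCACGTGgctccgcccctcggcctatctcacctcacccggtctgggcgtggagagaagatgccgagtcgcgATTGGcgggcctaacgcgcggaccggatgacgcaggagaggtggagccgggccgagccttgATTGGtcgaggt
Fasn: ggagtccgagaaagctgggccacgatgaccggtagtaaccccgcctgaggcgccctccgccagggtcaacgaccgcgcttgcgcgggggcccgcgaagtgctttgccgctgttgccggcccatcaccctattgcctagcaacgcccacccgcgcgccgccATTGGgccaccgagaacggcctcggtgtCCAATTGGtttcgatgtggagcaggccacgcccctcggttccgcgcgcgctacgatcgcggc
Hmgcs1 has its sterol element 137 bases before the start site between CCAAT matches at 176 and 45 bases before it. Mvk holds 5 CCAAT matches, the nearest 14 bases before the start site, and Hsd17b7 holds 3 beside an E-box at 143 bases. Fasn holds 3, of which the matches at 62 and 59 bases overlap on opposite strands in CCAATTGG.

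The genes that control the pathway showed no common direction. Srebf2, which encodes the SREBP factor of sterol genes, was at 14567, 12121 and 12492 in GC-treated 1, 2 and 3, against 14879.7, 11862 and 14064 in vehicle-treated 1, 2 and 3. The groups overlapped fully, with the highest and the lowest library both vehicle-treated, at a fold change of -0.057 (95% interval -0.31 to 0.20). Srebf1, which encodes the factor of fatty acid genes and is itself an LXR target, was at 7069, 8869 and 8280.1 in GC-treated and 7759.9, 7377 and 8779 in vehicle-treated libraries, a fold change of 0.016 (95% interval -0.24 to 0.27). Insig1, a retention factor that is also a SREBP target, was at 1133, 1349 and 1498 in GC-treated and 1442, 1055 and 1126 in vehicle-treated libraries, a fold change of 0.14 (95% interval -0.23 to 0.51). Vehicle-treated 1 lay close to GC-treated 3, the highest library, and the groups overlapped. Insig2, its partner that does not follow SREBP in most cells, was at 1661, 1916 and 1676 in GC-treated and 1722, 1706 and 1907 in vehicle-treated libraries, a fold change of -0.024. Per kilobase Insig1 stood to Insig2 at 0.695, 0.717 and 0.910 in GC-treated 1, 2 and 3, against 0.853, 0.630 and 0.601 in vehicle-treated 1, 2 and 3, with vehicle-treated 1 inside the GC-treated range. Stard4, a cholesterol carrier, was at 2556, 1889 and 2225 in GC-treated and 2687, 2656 and 2191 in vehicle-treated libraries, a fold change of -0.18 (standard error 0.14). GC-treated 1 lay near the vehicle-treated libraries 1 and 2, and vehicle-treated 3 lay below GC-treated 3. Scap, the escort of SREBP, ran from 6655 to 8692, both in GC-treated libraries, at -0.049. The signs of Srebf1, Srebf2, Scap and Insig2 each turned on leaving out at least 1 library.

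In fatty acid synthesis the values parted by enzyme. Acaca encodes acetyl-CoA carboxylase, which commits acetyl-CoA to fatty acids, and lies on the forward strand of chromosome 11 at 84020476-84292477 of GRCm39. It was at 2613, 1562 and 1411 in GC-treated 1, 2 and 3, against 2732, 3055 and 2304 in vehicle-treated 1, 2 and 3. GC-treated 2 and 3 lay below every vehicle-treated library and GC-treated 1 lay between vehicle-treated 3 and 1. The means were 1862 ± 655 and 2697 ± 377 (SD, n = 3 each), a log2 fold change of -0.58 ± 0.22 (SE) and an adjusted p of 0.62 by limma. Fasn encodes fatty acid synthase, which builds palmitate from malonyl-CoA, and lies on the reverse strand of chromosome 11 at 120696672-120715995 of GRCm39. It was at 31832, 17638 and 18285 in GC-treated 1, 2 and 3, against 29471, 30478 and 31668 in vehicle-treated 1, 2 and 3. GC-treated 1 was the highest of all 6 libraries, and GC-treated 2 and 3 were far below the other 4. The means were 22585 ± 8015 and 30539 ± 1099.7 (SD, n = 3 each), a log2 fold change of -0.49 ± 0.20 (SE) and an adjusted p of 0.62 by limma. Acly, the supplier of acetyl-CoA to both pathways, was nearly constant at 36117, 34874 and 33948 in GC-treated and 35616, 34339.7 and 35657 in vehicle-treated libraries, a fold change of -0.0095 (95% interval -0.17 to 0.15). Per kilobase Fasn stood to Acly at 0.360, 0.207 and 0.220 in GC-treated 1, 2 and 3, against 0.338, 0.363 and 0.363 in vehicle-treated 1, 2 and 3. Acaca stood to Acly at 0.0335, 0.0208 and 0.0193 in the GC-treated libraries and at 0.0356, 0.0412 and 0.0299 in the vehicle-treated ones. Fasn stood to Idi1, a sterol enzyme, at 1.56, 0.800 and 0.681 in GC-treated 1, 2 and 3, against 1.58, 1.73 and 1.41 in vehicle-treated 1, 2 and 3. These ratios within a library do not depend on its size factor, and in each of them GC-treated 1 sat with the vehicle-treated libraries. They do set long transcripts against shorter ones. Fasn, Abca1 and Acaca have the longest transcripts of the members, at 10789, 10267 and 9513 bases, against 4410 for Acly and 2590 for Idi1. The part of transcript length or RNA integrity in the Fasn and Acaca values was not tested.

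Without GC-treated 1 the fold change of Fasn was -0.77 with an adjusted p of 0.040 from limma, which passes the test, as did 0.374% of the genes tested without it, in the lower direction. That of Acaca was -0.85 with an adjusted p of 0.057 from limma, which does not. The unadjusted counts without that library were 8 higher members (Acat2, Mvk, Mvd, Idi1, Cyp51, Msmo1, Hsd17b7 and Elovl6), beside 8.4% of all genes tested without it, and 4 lower members, beside 12.3%. Leaving out a library for its own values inflates such counts. Of the genes of cell division, a pair singled out after their values were seen had a similar order of libraries. Mki67, a proliferation marker, was at 40932, 24952 and 19416 in GC-treated 1, 2 and 3, against 43158, 49759 and 36932 in vehicle-treated 1, 2 and 3. Top2a, a topoisomerase of dividing cells, was at 65075, 50658 and 43901 in the GC-treated libraries and at 65209.7, 72484 and 70477 in the vehicle-treated ones. Both were lowest in GC-treated 2 and 3, as Fasn and Acaca were. The 15 proliferation genes summed to 442383 to 495373 in GC-treated and 484756 to 517939 in vehicle-treated libraries, none was at 0 in any library, and 6 had positive and 9 negative fold changes. The list as a whole did not share that order, its median log2 deviation being 0.049, -0.17 and 0.0046 in GC-treated 1, 2 and 3, against -0.025, 0.15 and 0.018 in vehicle-treated 1, 2 and 3. Rrm2, the most abundant of them, was at 0.12. Rrm2 and Mcm2 were higher in every GC-treated library than in any vehicle-treated one, beside 6.4% of all tested genes. Top2a and Aurkb were lower in every one, beside 6.4% again. At an unadjusted p under 0.05 by limma 0 of the 15 were higher and 3 lower, beside 2.12% and 5.07% of all tested genes. The part of cell division in the Fasn and Acaca values was not tested.

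The later steps of fatty acid metabolism gave smaller and mixed differences. Scd2, the desaturase that was measured, lies on the forward strand of chromosome 19 at 44281613-44295303 of GRCm39 and was at 3929, 3124 and 4004 in GC-treated 1, 2 and 3, against 3869, 5308 and 4954 in vehicle-treated 1, 2 and 3. GC-treated 2 was lowest, and vehicle-treated 1 lay below GC-treated 1 and 3. The means were 3686 ± 488 and 4710.3 ± 750.1 (SD, n = 3 each), a log2 fold change of -0.35 ± 0.15 (SE) and an adjusted p of 0.62 by limma. Elovl6, which elongates palmitate, ran from 849 in vehicle-treated 2 to 1374 in GC-treated 3, at 0.30 (standard error 0.15), so its lowest and highest libraries were those of most sterol enzymes and not those of Fasn. Elovl5 ran from 10152 to 12779, both in GC-treated libraries, at -0.085. Fads1 ran from 2689 to 3066 at -0.014. Fads2 had at most 25.0 normalized counts, in vehicle-treated 3, and was listed at 0 in 3 libraries, so its fitted value of 0.79 depends on the pseudocount and was -0.23 by DESeq2.

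Abcg1, which moves cholesterol from the cell to lipoproteins, had the smallest p of the members and lies on the forward strand of chromosome 17 at 31276649-31336969 of GRCm39. It was at 629, 686 and 638 in GC-treated 1, 2 and 3, against 894, 1239 and 806 in vehicle-treated 1, 2 and 3. The GC-treated libraries lay close together and below every vehicle-treated one, of which vehicle-treated 2 was highest. The means were 651 ± 30.3 and 979.9 ± 229 (SD, n = 3 each), a log2 fold change of -0.57 ± 0.18 (SE) and an adjusted p of 0.62 by limma. On leaving out 1 library it ran from -0.69 to -0.38. Unlike Fasn and Acaca, Abcg1 in GC-treated 1 did not stand with the vehicle-treated libraries. Abca1, the exporter that loads apolipoproteins, was at 52.8, 18.9 and 24.8 in GC-treated 1, 2 and 3, against 43.6, 28.1 and 56.3 in vehicle-treated 1, 2 and 3. At these counts the groups overlapped and the 95% interval of its fold change of -0.48 ran from -1.73 to 0.77. No difference was detected in these libraries, and the interval spans both directions. Nr1h2, the receptor itself, was at 6379, 6809 and 6599 in GC-treated and 6713, 5887 and 6048 in vehicle-treated libraries, a fold change of 0.087 (95% interval -0.11 to 0.29).

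**Figure D5:**
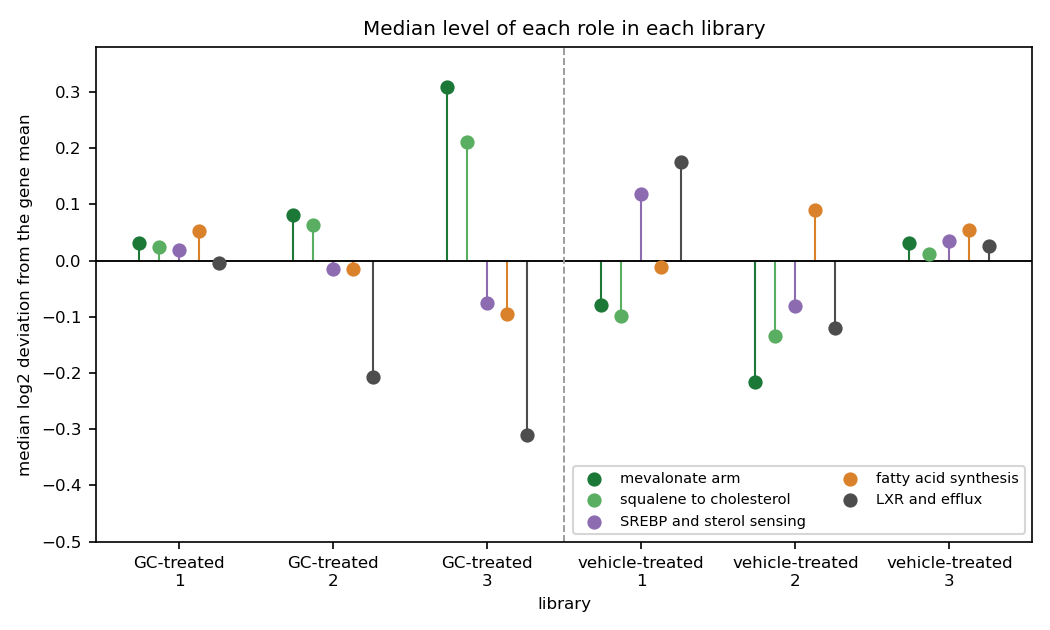
Median over the genes of a role of the log2 deviation from the gene mean, for each library, with GC-treated libraries left of vehicle-treated ones. The mevalonate arm has 0.031, 0.081 and 0.31 in GC-treated 1, 2 and 3, against -0.080, -0.22 and 0.032 in vehicle-treated 1, 2 and 3, while the medians of fatty acid synthesis lie between -0.095 and 0.089.

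Lists of further genes of the same pathways, chosen with earlier results known, were set beside the members. Of 28 tested genes of sterol synthesis, uptake, esterification and trafficking, 15 had positive and 13 negative fold changes, with a median of 0.0046, and none passed limma's test. Osbpl5, an oxysterol-binding protein, was at -0.38 and Npc1, which exports cholesterol from lysosomes, at -0.21. Of 28 further genes of fatty acid synthesis and activation, 14 were positive and 14 negative, with a median of -0.0041 and none past the test. Slc25a1, the mitochondrial citrate carrier, was at 0.27, Acsl4, which activates polyunsaturated fatty acids, at -0.22, and Acss1, a mitochondrial acetyl-CoA synthetase, at -0.33. Of 14 LXR partners and targets, 6 were positive and 8 negative, with a median of -0.10 and none past the test. Nr1h3, which encodes LXRα, was at -0.71, with 95.2, 81.4 and 57.9 counts in GC-treated 1, 2 and 3, against 177, 136 and 83.5 in vehicle-treated 1, 2 and 3. Mylip, a ubiquitin ligase and LXR target, was at -0.46, and Abca7, a lipid transporter, at -0.33.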

How the data were processed

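Sorted circulating donor CD8+ T cells were profiled by bulk RNA-Seq in 6 libraries. Reads were aligned by the authors to GRCm39 (Gencode M26) with STAR and counted per gene with summarizeOverlaps, with tool versions not given in the sources used. The deposited unit is a normalized signal, the count of each library divided by its DESeq2 size factor. Each library's values stepped by the worth of 1 read (100% of them whole within 0.001 of a read), so reads were recovered; for GC-treated 2 the step lies too near 1 for an independent check. No value column was left unmapped (0).

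The 37 genes and the other lists were chosen with earlier results of these data known. Limma 3.58.1 was fitted in R 4.3.3 to log2(value + 1) with a mean-variance trend and group alone, filter and adjustment as given above, at a threshold of 0.05. Values in every library were to be given for the 3 smallest p of each role, its highest gene per kilobase, Srebf1, Srebf2, Insig1, Insig2, Scd1, Scd2, Abca1 and Abcg1. Every other member has its range and fold change, each pathway list its 3 smallest p, and each cell type list its highest mean. Some genes that this rule would name are not reported here. Lengths are those of canonical transcripts and coordinates those of Gencode M39 on GRCm39, where 13727 of 14051 symbols were found. As alternatives, edgeR 4.0.16 and DESeq2 1.42.0 were run on the recovered reads and called 0 and 2 of all genes, none of them a member. Scaling, filters, pseudocount, trend, threshold and replicate block were also varied and each library was left out in turn. The main limma fit and the edgeR and DESeq2 fits were tested on simulated data, and the other alternatives were not. Intervals cover the spread between these libraries only. The library kit does not mark strand.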

Additional observations from a re-analysis of the deposited data

How the results depend on the processing

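Of the 36 genes, 28 kept their sign under every alternative that tested them, which were 15 for each except 14 for Abca1. Changing the filter, dropping the trend or adding the replicate block leaves a fold change as it was. Those alternatives could therefore not turn a sign. Over all genes DESeq2 called 2 lower and limma without a trend called 1 lower, where limma with the trend called 0; leaving out 1 library gave 0 to 2 higher and 0 to 43 lower, the highest without GC-treated replicate 1. Among the members the same gave 0 to 1 called lower, Fasn without GC-treated replicate 1. At an unadjusted p under 0.05, with 2 higher and 4 lower members with all libraries, limma without a trend gave 1 higher (Mvk) and 1 lower (Abcg1), and leaving out 1 library gave 0 to 8 higher and 1 to 4 lower. Signs turned on leaving out 1 library for Tm7sf2 (-0.51 to 0.080), Srebf1 (-0.055 to 0.11), Srebf2 (-0.15 to 0.011), Scap (-0.17 to 0.024), Insig2 (-0.090 to 0.028), Acly (-0.033 to 0.012) and Fads1 (-0.049 to 0.045), while Fads2 turned to -0.23 in DESeq2 and -0.24 in edgeR. The causes were not tested. The replicate block called 0 members and 0 of all genes, with 2 higher and 3 lower members at the unadjusted threshold. No pairing by number was seen, since deviations of same-numbered libraries correlated at 0.063, -0.14 and 0.13, and those of differently numbered ones at -0.25 to 0.22. Such correlations, taken from 3 libraries a group, cannot exclude a pairing. With 3 libraries a group the intervals are wide, and those of Fads2, Abca1 and Fdps, the genes with the lowest counts per kilobase, are the widest.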
